A study of Homo sapiens with 6 samples.

Results

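C/D box small nucleolar RNAs (snoRNAs) were followed in RNA recovered by cap immunoprecipitation from MOLT-4 cells, an established line of T-cell acute lymphoblastic leukaemia. The members were all array probes for cell RNA whose gene name starts with SNORD, leaving out U3 (names starting with SNORD3 and a letter), U8 (SNORD118) and U13 (SNORD13). This gave 195 genes with 201 probes, out of 36337 gene names with 50599 probes on the array. The name chose the members, and no measured value did. Cells of both groups were transfected: those of 3 arrays with an empty vector, called mock here, and those of 3 with NUDT16, a nudix hydrolase that removes caps from RNA. The antibody recognised trimethylguanosine (m3G) and 7-methylguanosine (m7G) caps, and the eluted RNA was reverse transcribed, labelled with Cy3 and hybridised to 1-colour Agilent arrays. No treatment time is given in the labels, and they do not say whether the 3 replicates came from separate cultures, so the p-values measure the spread between these arrays, which may be technical. Input RNA was not analysed here, so a change in abundance, in capping and in recovery cannot be told apart, nor can fewer cells and less RNA per cell.

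C/D box snoRNAs are short nuclear RNAs named after a C box near the 5′ end and a D box near the 3′ end. Fibrillarin (FBL), NOP56, NOP58 and NHP2L1 (SNU13) assemble on these boxes, and the bases upstream of the D box pair with ribosomal RNA to direct ribose methylation. Most human C/D box snoRNAs are cut out of introns of host genes and carry no cap of their own when mature, while U3, U8 and U13, left out here, are made from their own promoters and carry m3G caps. Some hosts, such as GAS5 and SNHG1, make spliced RNAs without a known protein product, and others encode ribosomal proteins. A probe in snoRNA sequence does not tell a mature snoRNA from an unspliced host RNA that still holds it. For 4 member probes (second probes of SNORD8, SNORD9, SNORD12B and SNORD124) the files give no RefSeq accession, and those of SNORD9 and SNORD124 lie on the opposite strand from the gene's other probe, so they may not measure the snoRNA.

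The probes that the results below turn on are printed here in the sense of the RNA. Capitals mark the last CTGA (the letters of the D box) and the first TGATGA (the letters of a C box), where the probe holds them. SNORD104, SNORD105B, SNORD32A and SNORD32B varied strongly with the replicate number, and SNORD52 and SNORD116-19 hardly did. SNORD75, SNORD50B, SNORD101 and SNORD49A were lower with NUDT16 in every same-numbered pair of arrays, and SNORD26 was higher in 2 of 3. SNORD115-4 and SNORD115-5 were detected on NUDT16 arrays only. The pair of SNORD8 probes is shown because they moved differently.
SNORD104: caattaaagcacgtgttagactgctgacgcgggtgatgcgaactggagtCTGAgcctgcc
SNORD105B: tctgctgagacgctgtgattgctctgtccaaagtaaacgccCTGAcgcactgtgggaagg
SNORD32A: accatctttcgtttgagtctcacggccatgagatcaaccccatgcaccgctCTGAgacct
SNORD32B: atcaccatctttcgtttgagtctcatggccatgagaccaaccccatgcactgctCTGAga
SNORD52: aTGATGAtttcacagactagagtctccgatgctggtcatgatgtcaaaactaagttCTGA
SNORD116-19: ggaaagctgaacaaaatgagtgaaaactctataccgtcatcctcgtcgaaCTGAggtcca
SNORD75: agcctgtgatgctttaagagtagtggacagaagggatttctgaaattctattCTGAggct
SNORD50B: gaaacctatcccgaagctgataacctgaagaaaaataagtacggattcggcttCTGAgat
SNORD101: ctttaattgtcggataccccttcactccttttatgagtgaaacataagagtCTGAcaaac
SNORD49A: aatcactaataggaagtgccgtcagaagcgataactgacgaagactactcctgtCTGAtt
SNORD26: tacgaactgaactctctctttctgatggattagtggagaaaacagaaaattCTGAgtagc
SNORD115-4: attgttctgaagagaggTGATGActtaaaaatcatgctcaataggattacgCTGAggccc
SNORD115-5: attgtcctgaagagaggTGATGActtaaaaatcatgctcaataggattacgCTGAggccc
SNORD8 (A_21_P0000298): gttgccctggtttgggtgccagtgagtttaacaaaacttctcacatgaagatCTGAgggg
SNORD8 (A_33_P3843358): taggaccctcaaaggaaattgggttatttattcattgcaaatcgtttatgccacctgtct

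Each probe is 60 bases long, and positions are those of the array files on hg19. SNORD104 lies at chr17:62223458-62223517 on the plus strand and has no host in the gene table used. SNORD105B, at chr19:10220457-10220516 (plus), lies within PPAN, and SNORD32A, at chr19:49993245-49993304 (plus), within the ribosomal protein gene RPL13A. SNORD32B, at chr6:29550046-29550105 (plus), has no host there. SNORD52, at chr6:31804857-31804916 (plus), lies within SNHG32, and SNORD116-19, at chr15:25328768-25328827 (plus), within SNHG14. SNORD75, at chr1:173836017-173836076 (minus), lies within GAS5, SNORD50B, at chr6:86387307-86387366 (minus), within SNHG5, and SNORD101, at chr6:133136459-133136518 (plus), within RPS12. SNORD49A, at chr17:16343361-16343420 (plus), lies within SNHG29, and SNORD26, at chr11:62622764-62622823 (minus), within SNHG1. SNORD115-4, at chr15:25422001-25422060, and SNORD115-5, at chr15:25434583-25434642, are both on the plus strand. The SNORD8 probes are at chr14:21865452-21865511 (A_21_P0000298) and chr14:21865301-21865360 (A_33_P3843358), both minus. An exon and intron annotation on hg19 was not used here.

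The sequences carried the mark of their class. CTGA occurred in 189 of 201 member probes (94.0%), against 29.4% of all 50599 probes, and its reverse complement TCAG in 33 (16.4%) against 27.1%. Within the last 12 bases CTGA occurred in 161 member probes (80.1%), against 5.71% of all probes. TGATGA occurred in 48 (23.9%) against 2.89%, and its reverse complement TCATCA in 2 (0.995%) against 2.30%. TGATGA followed by CTGA occurred in 44 (21.9%) against 0.474%. The second SNORD8 probe, A_33_P3843358, held neither and lies downstream of the first without overlap, so it may measure RNA outside the snoRNA. Copies within a family shared long runs: 20 bases or more were shared by 50 pairs among 20 SNORD114 probes, 42 pairs among 11 SNORD115 probes and 16 pairs among 9 SNORD116 probes. The probes of SNORD115-4 and SNORD115-5 differ at 1 base and share a run of 54, so signal of one copy can reach the probe of the other. Outside the families, 5 pairs shared 21 to 32 bases, SNORD32A and SNORD32B among them with 22.

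Detection varied from array to array. Of all probes, 36.1% to 49.6% were well above background on 5 arrays and 13.6% on NUDT16 replicate 2. No spot was saturated. On every array both NUDT16 probes were at background, so these probes did not check the labels. A probe of the NUDT16 pseudogene NUDT16P1 was well above background on the 3 NUDT16 arrays and on 0 of the mock arrays. Another NUDT16P1 probe was at background on all 6 arrays. Of 14 T-lineage markers 13 were on the array, 9 of them detected on all 6 arrays. Of 15 markers of B, myeloid, erythroid and epithelial cells 13 were on the array, with 7 detected on none and 2 (CD79A and KRT8) on all 6. Same-numbered mock and NUDT16 arrays shared a slide and a scan, per the file headers, and are called a pair below. Signals below are log2 values relative to the array's 75th percentile over the 6582 probes well above background on all 6 arrays. A negative signal is below that percentile, and a value on an array where the probe was not well above background is only a bound. Levels are compared between arrays for one probe, never between probes.

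C/D box snoRNAs were widely detected in the cap immunoprecipitate, and the families of tandem copies were split. Of the 195 genes, 147 had a probe well above background on at least 1 array and 48 had none. Among the 201 probes, 123, 125 and 140 were well above background on mock replicates 1, 2 and 3 (61.2%, 62.2% and 69.7%). On the NUDT16 arrays the numbers were 104, 49 and 138 (51.7%, 24.4% and 68.7%). Replicate 2 of NUDT16 was thus low for members as it was for all probes. H/ACA snoRNAs, which guide pseudouridylation (names starting with SNORA, 125 probes), were detected at 86.4%, 82.4% and 88.0% on mock and 78.4%, 44.0% and 88.0% on NUDT16 arrays. On all 6 arrays 48 member probes for 48 genes were detected (23.9%), against 44.0% of H/ACA probes and 13.01% of all probes. No member was detected on all 3 arrays of one group and on none of the other.

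**Figure D1:**
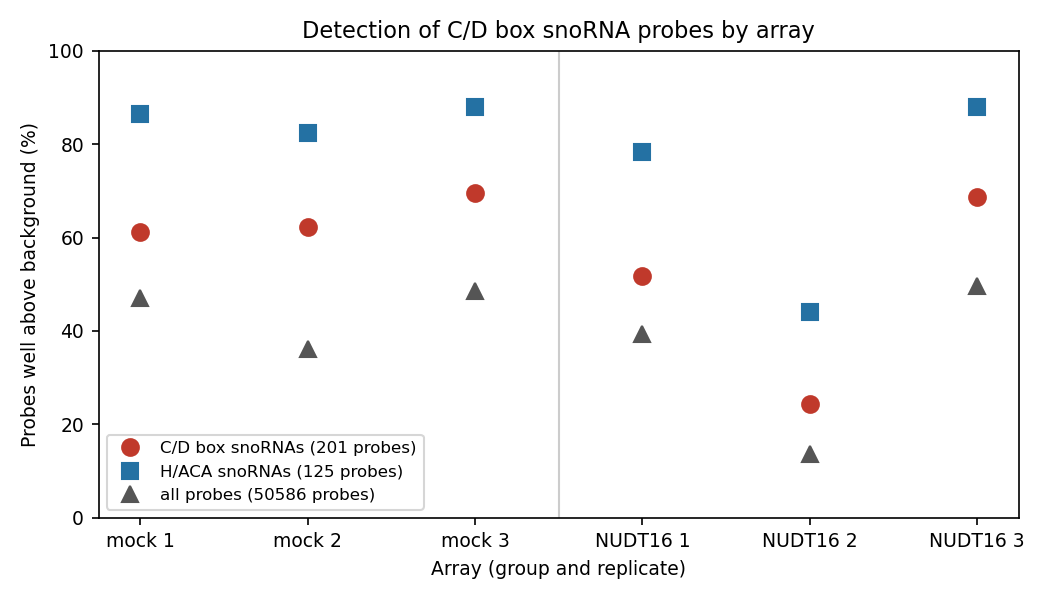
Percentage of probes well above background on each array (y axis) for the 6 arrays (x axis), for C/D box snoRNAs, H/ACA snoRNAs and all probes. C/D box snoRNAs lie between the other classes on every array, and all classes are lowest on NUDT16 replicate 2, where 24.4% of C/D probes were detected.

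The SNORD113 and SNORD114 copies, arrayed in the imprinted region of chromosome 14 within MEG8, were mostly not detected. Of 8 SNORD113 probes 7 were above background on no array, and the other, SNORD113-4, on mock replicate 1 only. Of 30 SNORD114 probes 24 were above background on no array. Those of SNORD114-3, SNORD114-11, SNORD114-12, SNORD114-20 and SNORD114-22 were above it on mock replicate 3 only, and that of SNORD114-28 on NUDT16 replicate 3 only. SNORD114-3 read -10.33, -9.24 and -5.08 on mock replicates 1, 2 and 3 and -9.88, -5.81 and -10.20 on NUDT16 replicates 1, 2 and 3, and only the third of these was above background. Detection on a single array, as for these 7 probes, has no replicate.

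On chromosome 15 the host transcript SNHG14 spans both SNORD116 and SNORD115, and the families differed. SNORD115, known chiefly from brain, had 11 of 13 probes above background on no array. SNORD115-5 read -9.16, -9.24 and -9.91 on the mock arrays, at background on each, and -6.52, -3.32 and -8.96 on the NUDT16 arrays, above background on replicates 1 and 2. SNORD115-4, whose probe differs from it at 1 base, read -9.86, -8.80 and -8.50 on mock and -7.38, -5.61 and -8.54 on NUDT16 arrays, above background on NUDT16 replicate 1. These were the only SNORD115 probes detected, each on NUDT16 arrays, and neither was tested because neither was detected on all arrays of a group. The SNORD115-1 probe was above background on no array, although it differs from that of SNORD115-5 at 1 base and shares a run of 56. It differs from the SNORD115-4 probe at 2 bases. What the signal of the detected probes measures was not tested.

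SNORD116, the family of the Prader-Willi region, was detected broadly. Of 11 probes 10 were above background on some array, 8 on all 3 mock arrays and 3 (SNORD116-6, SNORD116-19 and SNORD116-27) on all 6. SNORD116-19 read -0.9995, -0.86 and -0.74 on mock and -1.41, -1.44 and -1.01 on NUDT16 arrays. All 3 NUDT16 values lay below all 3 mock values, by a small margin. It was the only member whose groups did not overlap with NUDT16 lower, 1 of 118 tested, against 0.281% of all probes tested, and 0 of 118 were higher without overlap, against 0.31%. On all 6 arrays the counts were 1 of 48 lower, against 0.243% of all probes so detected, and 0 of 48 higher, against 0.334%. SNORD116-6 read -2.61, -2.65 and -2.41 on mock and -3.11, -2.595 and -2.81 on NUDT16 arrays, with overlap. The 8 tested SNORD116 probes had NUDT16 minus mock differences from -0.58 to 0.57, with a median of -0.36. They were lower with NUDT16 in 7 of 8 for pair 1, 3 of 8 for pair 2 and 7 of 8 for pair 3. Over all 118 tested members the numbers were 87, 53 and 91. All 8 had passed the filter on the mock arrays and 3 were detected on all NUDT16 arrays, which favours lower NUDT16 values. The single-copy snoRNAs of the same transcript, SNORD64, SNORD107, SNORD108 and SNORD109B, were detected on all 3 mock arrays, 4 of 4.

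Among snoRNAs outside these 4 families, 9 of 139 probes were above background on no array. They belonged to SNORD20, SNORD112, SNORD121A, SNORD121B, SNORD123, SNORD125 and SNORD126, and to second probes of SNORD9 and SNORD12B. These are counts of what the arrays detected, and a probe at background does not show that an RNA is absent.

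The largest differences in C/D box snoRNA signal followed the replicate number rather than NUDT16. Over the 48 members detected on all 6 arrays, both replicate 2 arrays stood above the other 4 arrays for 35 (72.9%), against 16.4% of the 6582 probes so detected. All 6582, members included, had to be detected on NUDT16 replicate 2, where few probes were, which favours probes high on that array. Both replicate 1 arrays stood below the other 4 for 31 members (64.6%), against 21.2%. The reverse patterns, replicate 1 above (23.5% of all) and replicate 2 below (11.8%), held for 0 members each. Replicate 3 stood above for 2 members (14% of all) and below for 2 (13.5%).

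SNORD104 read 1.83, 4.30 and 2.42 on mock replicates 1, 2 and 3 and 1.94, 5.94 and 2.49 on NUDT16 replicates 1, 2 and 3. SNORD105B read 0.43, 3.59 and 0.04 on mock and 1.09, 4.73 and 0.76 on NUDT16 arrays. Both were highest on the replicate 2 arrays of either group, and the groups overlapped. SNORD32A, in RPL13A, read -2.29, 0.56 and -1.54 on mock and -2.22, 2.57 and -1.74 on NUDT16 arrays. SNORD32B, whose probe shares 22 bases with it, read -3.10, -0.24 and -2.49 on mock and -3.10, 1.73 and -2.69 on NUDT16 arrays. These probes with a shared run moved in step. SNORD55 read -3.47, -0.61 and -3.74 on mock and -3.08, 0.88 and -2.81 on NUDT16 arrays. SNORD74, in GAS5, read -2.54, 0.47 and -1.27 on mock and -3.07, 0.88 and -1.66 on NUDT16 arrays. For each of these 6 the mean over the replicate 2 arrays exceeded that over the other 4 by 2.81 (SNORD74) to 3.59 (SNORD32B).

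Other members of the pattern had smaller excess. SNORD83B and SNORD83A, both in RPL3, stood 2.43 and 2.33 above the other arrays on replicate 2, and SNORD25, SNORD46 and SNORD17 between 2.09 and 2.24. SNORD43, also in RPL3, read -1.09, 1.25 and 0.81 on mock and -1.33, 1.33 and 0.53 on NUDT16 arrays, with replicate 2 above and replicate 1 below the rest in both groups. SNORD86, SNORD110, SNORD16 and SNORD15A had the smallest excess among those with the pattern that are named here, 0.69 (SNORD16) to 0.89 (SNORD15A). The named members SNORD8 (probe A_21_P0000298), SNORD48, SNORD87, SNORD89, SNORD95, SNORD68 and SNORD15B also had the pattern, with excess from 1.21 (SNORD68) to 3.26 (SNORD8). SNORD12C, SNORD38A, SNORD84 and SNORD49A were lowest on the replicate 1 arrays without being highest on both replicate 2 arrays.

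A few members hardly moved. SNORD52 read -0.85, -0.65 and -0.39 on mock and -1.03, -0.98 and -0.65 on NUDT16 arrays. SNORD116-19 spanned -1.44 to -0.74 over the 6 arrays. Across all 48 the excess on replicate 2 ran from -0.11 to 3.59, with a median of 1.51, and it was positive for 46.

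**Figure D2:**
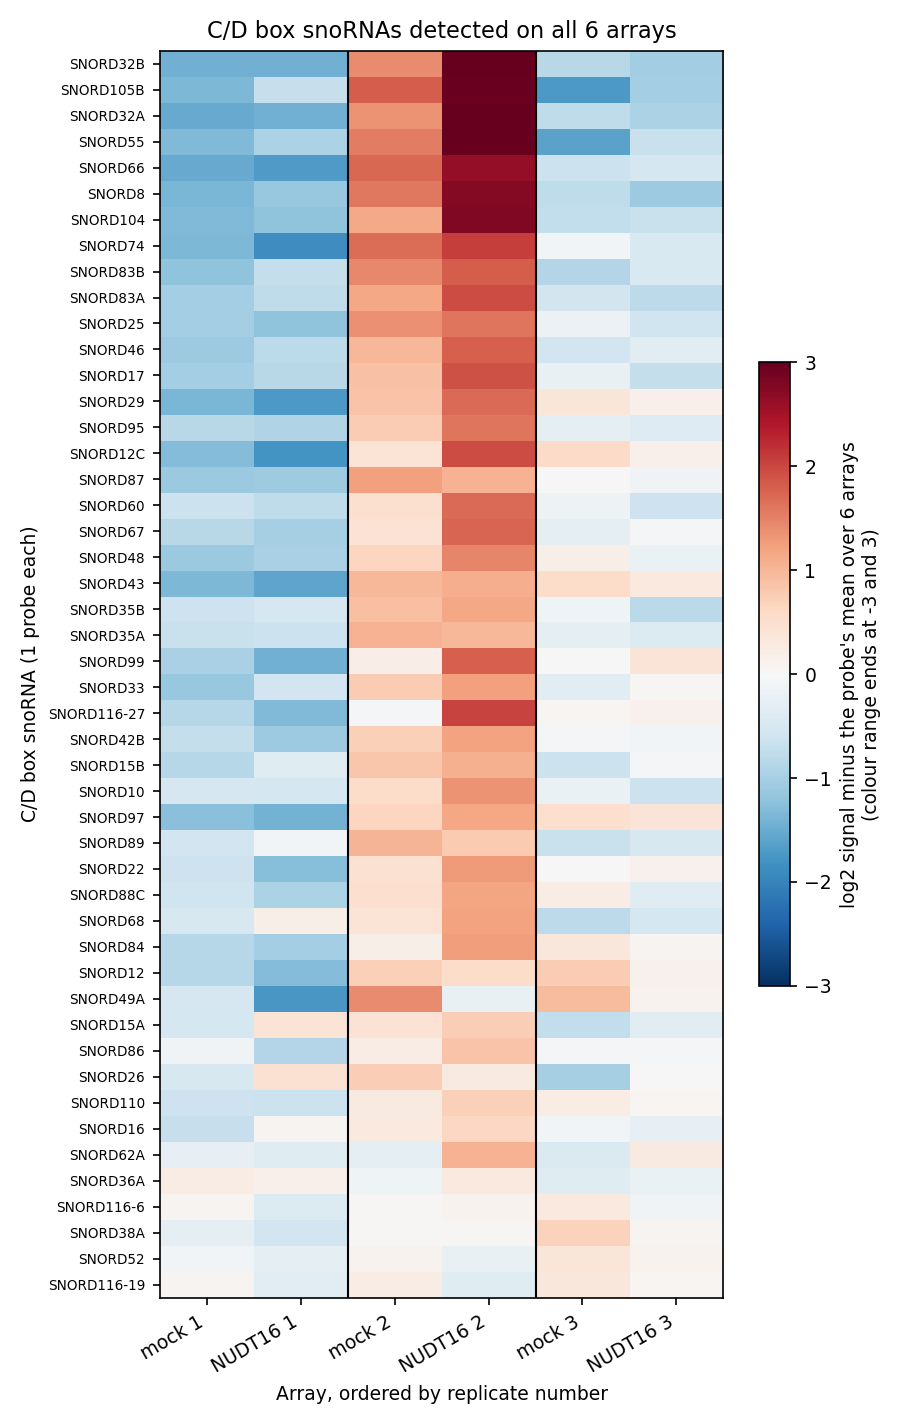
Log2 signal of the 48 C/D box snoRNA probes detected on all 6 arrays (rows), as the difference from each probe's mean over the arrays (colour), with arrays (columns) ordered by replicate number. Both replicate 2 arrays are red for most rows and both replicate 1 arrays blue, while SNORD52 and SNORD116-19 at the bottom stay near 0.

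Other small RNAs and host genes were looked at for the same pattern. Both replicate 2 arrays stood above the others for 32 of 55 H/ACA probes (58.2%), for 10 of 12 small Cajal body RNA probes (names starting with SCARNA, 83.3%) and for 2 of 2 U3 probes, whose excess was 2.85 and 3.81. Of 46 member hosts detected on all 6 arrays, 15 were highest on both replicate 2 arrays (32.6%, against 16.4% of all probes so detected), with a median excess of 0.09. Of the 19 among them that host a member with the pattern, 7 had it, and their excess ran from -1.65 to 1.56 with a median of 0.04. The difference between snoRNAs and hosts was not tested. Probe base composition moved with the pattern: the 35 members had a median GC content of 51.7%, and the other 13 one of 43.3%. The parts of base composition and of the dim array NUDT16 replicate 2 in the pattern were not tested. Slide and scan cannot be told apart, since both follow the replicate number. The labels do not say whether preparation followed it too, and its part was not tested.

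The count of 35 depended little on the choice among scalings, and the replicate 1 count depended more. The replicate 2 pattern held for 34 to 41 of the 48 members with a percentile over all spots, a median shift, normexp background correction, quantile normalization or the authors' deposited table, against 15.6% to 21.6% of all probes. Without any scaling it held for 0, since NUDT16 replicate 2 was dim as a whole. Both replicate 1 arrays were lowest for 14 members with a percentile over all spots and for 18 with the deposited table.

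NUDT16 against mock was tested for 118 member probes within 17765 probes, those detected on every mock array or on every NUDT16 array. None of the 118 passed at an adjusted p of 0.05 in limma, and 0 had an unadjusted p under 0.05. Among all probes 1 passed (0.00563%), the NUDT16P1 probe detected on the NUDT16 arrays, and 8 had an unadjusted p under 0.05 (0.045%). With the replicate number as a block, limma again called 0 of the 118 members, and 16 of the 118 had an unadjusted p under 0.05, against 9.76% of all probes. All 118 had passed the filter on the mock arrays. Only 48 were also detected on all NUDT16 arrays, 51 on 2 and 19 on 1, so lower values with NUDT16 were favoured by the way the probes were chosen. Background values lay higher on NUDT16 replicate 2, which for dim probes favours higher NUDT16 values in pair 2. Both NUDT16 probes, at background on every array, read -5.74 and -5.70 there and -9.13 and -9.05 on mock replicate 2. The fitted difference was higher with NUDT16 for 44 and lower for 74, with a median of -0.17 against -0.11 over all probes tested. Over the 48 detected on all arrays the median was 0.21, against 0.16 over all probes so detected. Both sets had to be detected on the dim array NUDT16 replicate 2, which favours probes high on that array and so higher NUDT16 values. A member's difference had a median standard error of 0.76, and of 0.34 with the block.

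The members with the most negative fitted differences were SNORD50B (-1.96), SNORD75 (-1.65), SNORD101 (-1.59), SNORD54 (-1.40) and SNORD44 (-1.28). None of these 5 was detected on NUDT16 replicate 2. SNORD50B, in SNHG5, read -3.93, -1.22 and -0.61 on mock and -4.99, -4.55 and -2.09 on NUDT16 arrays, of which -4.55 was at background. Its means were -1.92 ± 1.76 (SD, n = 3) and -3.88 ± 1.56 (SD, n = 3), so the difference was close to the spread between arrays of a group. That spread includes differences between replicate numbers, which the pairs take out. In pairs 1, 2 and 3 SNORD50B differed by -1.07, -3.33 and -1.48, the second resting on the background value. With the block the SE was 0.48 and the limma adjusted p 0.467. SNORD101 read -5.70, -3.21 and -2.50 on mock and -6.97, -5.62 and -3.59 on NUDT16 arrays, of which -5.62 was at background. SNORD54 read -5.05, -2.85 and -2.73 on mock and -5.74, -5.55 and -3.53 on NUDT16 arrays. In each of these the NUDT16 array was the lower one of every pair, while the groups overlapped.

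The most positive differences were those of SNORD55 (0.94), SNORD105B (0.84), SNORD41 (0.83), SNORD32A and SNORD62A (0.63 each). SNORD55 was higher by 0.40, 1.49 and 0.93 in pairs 1, 2 and 3, and SNORD105B by 0.66, 1.15 and 0.72. SNORD62A differed by -0.11, 1.30 and 0.69. SNORD41 differed by -0.05, 1.38 and 1.17. It was detected on 5 arrays but not on NUDT16 replicate 2, so its difference in pair 2 has only a bound. Without that array the difference of SNORD41 was 0.25. SNORD32A differed by 0.07, 2.003 and -0.20, so its mean rested on pair 2, and without NUDT16 replicate 2 its difference was -0.89. SNORD8 was the only gene with more than 1 probe tested, at 0.36 (A_21_P0000298) and -0.49 (A_33_P3843358). These 12 probes had limma adjusted p values of 0.999 without the block and 0.467 to 0.649 with it.

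By pair, the median NUDT16 minus mock difference over the 118 was -0.37, 0.10 and -0.27 in pairs 1, 2 and 3, against -0.36, 0.09 and -0.06 over all probes tested. Over the 48 detected on all arrays it was -0.07, 0.65 and -0.14, against -0.11, 0.35 and 0.04. Detection on the dim array NUDT16 replicate 2, asked for here, favours higher values in pair 2. Over the 48, lower in both pair 1 and pair 3 were 21, against 36.8% of all probes so detected, and higher in both were 11, against 32.9%. Over the 118, of which 51 and 19 were detected on 2 and 1 of the NUDT16 arrays and passed the filter through the mock group, which favours lower NUDT16 values, the numbers were 73 (48.3% of all probes tested) and 13 (20.5%). Lower in all 3 pairs were 40 (27.5% of all) and higher in all 3 pairs 9 (15.9% of all). On all 6 arrays, lower in all 3 pairs were SNORD12, SNORD49A, SNORD52 and SNORD116-19, 4 of 48 against 19.3% of all. Higher in all 3 pairs were SNORD104, SNORD105B, SNORD83B, SNORD55, SNORD15A, SNORD15B, SNORD68, SNORD46 and SNORD33, 9 of 48 against 27% of all. SNORD15A and SNORD15B both lie within RPS3, and their differences in pairs 1, 2 and 3 were 0.96, 0.30 and 0.40 for SNORD15A and 0.50, 0.24 and 0.56 for SNORD15B.

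A blocked fit of pairs 1 and 3 alone, which leaves out the dim array and its partner, called 12 members of 118 (10.2%): 11 lower, against 3.38% of all probes tested, and 1 higher, against 0.0675%. This fit rests on 2 pairs, and limma gave every probe the same standard error, 0.30. Its p-values therefore follow only the size of a probe's mean difference, against a spread pooled over all probes. The lower ones were SNORD63 (-1.60, limma adjusted p 0.000101), SNORD75 (-1.59), SNORD51 (-1.31), SNORD50B (-1.27), SNORD101 (-1.18), SNORD8 by the downstream probe A_33_P3843358 (-1.14), SNORD19 (-1.06), SNORD49A (-1.04), SNORD1A (-1.03), SNORD116-11 (-1.01) and SNORD117 (-0.99). The higher one was SNORD26 (0.96, limma adjusted p 0.0438). Without the downstream SNORD8 probe, 10 lower calls are left among 117 tested probes. With all 3 pairs and the block, none of the 12 passed.

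Detection moved with these calls. Of 19 tested members not detected on NUDT16 replicate 1, 7 were called lower (36.8%), against 28.4% of the 1262 tested probes in the same position. Of the 99 members detected there, 4 were called lower, against 1.47% of 16503 probes. Of the 48 detected on all 6 arrays, 1 was called lower (2.08%), against 0.927% of all. SNORD63 read -7.12, -6.43 and -4.96 on mock and -9.43, -5.78 and -5.83 on NUDT16 arrays, and only the last of the NUDT16 values was above background. Such a difference has only a bound in pair 1. The 11 probes had a median GC content of 40%, against 43.3% over the tested members, and the part of base composition was not tested.

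SNORD49A was the 1 lower member detected on every array. It read -2.88, -0.96 and -1.43 on mock and -4.12, -2.59 and -2.26 on NUDT16 arrays. Its differences in pairs 1, 2 and 3 were -1.25, -1.63 and -0.83, while the groups overlapped because replicate 1 was low in both. The fitted difference was -1.24 (SE 0.73, limma adjusted p 0.999) without a block, the same with SE 0.32 and limma adjusted p 0.467 with the block, and -1.04 in replicates 1 and 3 (limma adjusted p 0.0249). SNORD75 read -6.41, -3.90 and -3.41 on mock and -8.34, -5.66 and -4.66 on NUDT16 arrays, with the NUDT16 values of replicates 1 and 2 at background. SNORD19, in GNL3, was also lower in all 3 pairs, with differences of -1.64, -1.002 and -0.49. SNORD63, SNORD51, SNORD8 (A_33_P3843358), SNORD1A, SNORD116-11 and SNORD117 were higher in pair 2, where their NUDT16 values were at background.

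SNORD26, in SNHG1, went the other way in pairs 1 and 3. It read -1.66, -0.46 and -2.18 on mock and -0.73, -0.93 and -1.20 on NUDT16 arrays, all above background. Its pair differences were 0.94, -0.47 and 0.99, so pair 2 had the opposite sign.

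**Figure D3:**
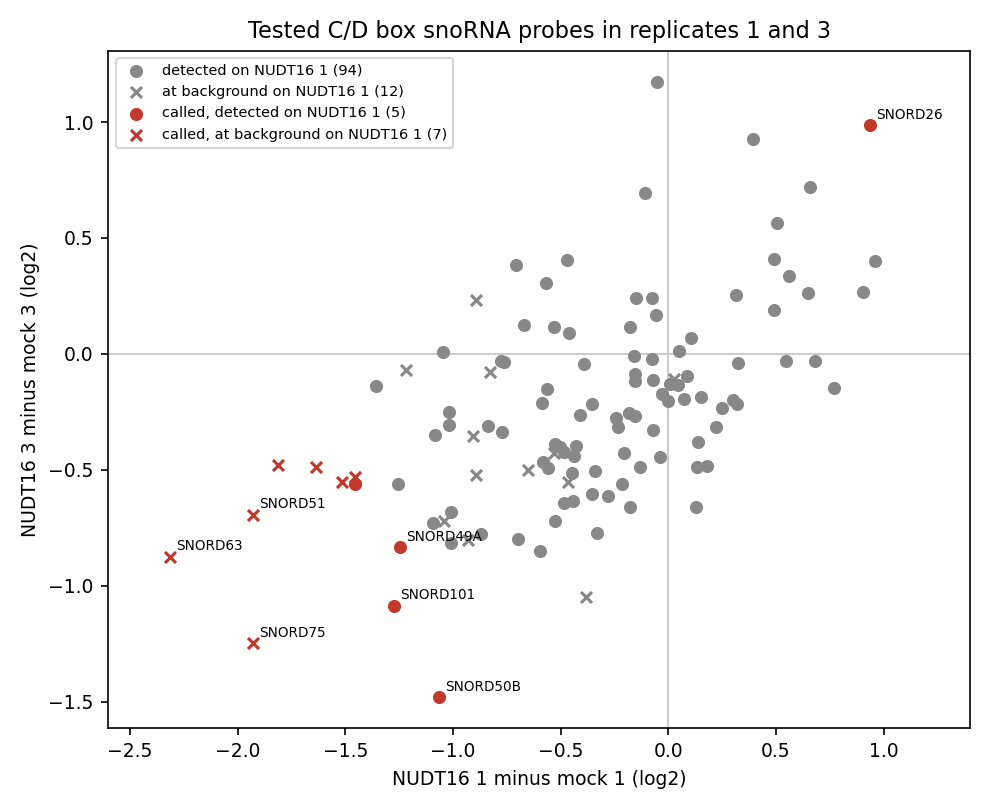
NUDT16 minus mock log2 signal in pair 1 (x axis) and pair 3 (y axis) for the 118 tested C/D box snoRNA probes, with red for the 12 called by limma in replicates 1 and 3 and crosses for probes at background on NUDT16 replicate 1. Of the 12, 7 are crosses toward the left, and SNORD26 lies alone at the upper right.

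Members were then set beside their host genes. A host on the same strand was found for 193 of the 201 member probes, and 166 had a host probe on the array. For 101 member probes, in 52 hosts, both were tested, and 39 of the hosts were detected on all 6 arrays. Of these 52 hosts, 0 passed in limma without a block and 0 in replicates 1 and 3, where 1 probe and 613 probes passed over all (0.00563% and 3.45%). Among all 63 tested hosts, 1 passed in replicates 1 and 3: NCL, which encodes nucleolin and hosts SNORD20 and SNORD82, neither of them tested (-1.16, limma adjusted p 0.00945). It is named after its value was seen. In replicates 1 and 3 the median difference was -0.10 over the 52 hosts and -0.27 over the 101 members. Across the 101 member probes, Pearson's r between member and host difference was 0.31, 0.27 and 0.03 in pairs 1, 2 and 3. These points share arrays and often hosts, so r is a description.

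GAS5, a host without a known protein product, lay above its snoRNAs in pairs 1 and 3. Its 7 tested members, SNORD44, SNORD47, SNORD74, SNORD75, SNORD76, SNORD79 and SNORD80, differed by -1.93 to -0.18 in pair 1, where the GAS5 probe differed by 0.07. In pair 3 they differed by -1.25 to 0.12, where GAS5 differed by 0.65. The host lay above all 7 members in both pairs, and 6 of the 7 members were lower in both, against 48.3% of all probes tested. The GAS5 probe was detected on all 6 arrays, but only SNORD74 of the members was. The other 6 had passed the filter on the mock arrays, which favours lower NUDT16 values, and the -1.93 of SNORD75 rests on a background value. In pair 2 they ran from -2.19 to 0.48 beside 0.41 for GAS5. SNORD44 read -6.01, -3.60 and -3.37 on mock and -6.88, -5.79 and -4.15 on NUDT16 arrays. SNORD47 read -4.80, -5.17 and -5.12 on mock and -5.33, -5.27 and -5.00 on NUDT16 arrays, so neighbours in one host did not move alike. The difference between members and host was not tested.

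ZFAS1 had a like arrangement in pairs 1 and 3, with fewer members, but not in pair 2. SNORD12, SNORD12B and SNORD12C differed by -0.60 to -0.44 in pair 1, where ZFAS1 differed by 0.09, and by -0.85 to -0.43 in pair 3, where ZFAS1 differed by 0.47. In pair 2 the order was reversed, with members from -0.16 to 1.54 beside -0.66 for ZFAS1. SNORD12C read -2.88, -1.16 and -0.997 on mock and -3.36, 0.38 and -1.42 on NUDT16 arrays. NOP58 encodes a core protein of the C/D particle and hosts SNORD11, SNORD11B and SNORD70. Members and host were all lower in pairs 1 and 3, as were 48.3% of all probes tested. The members had passed the filter on the mock arrays, and SNORD11 was detected on 5 of 6 arrays, which favours lower NUDT16 values. The members ran from -1.22 to -0.83 in pair 1 beside -0.68 for the host, and from -0.31 to -0.07 in pair 3 beside -0.85.

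SNHG1, with 8 tested members, had members on both sides of its host. They differed by -0.77 to 0.94 in pair 1, beside -0.17 for SNHG1, and by -0.72 to 0.99 in pair 3, beside 0.30. Of the 8 members 4 were lower in both pairs, against 48.3% of all probes tested, and SNORD26 was the highest in each. SNORD28 read -6.29, -4.26 and -3.83 on mock and -6.82, -5.58 and -4.55 on NUDT16 arrays, lower in every pair. SNORD22 read -4.32, -3.24 and -3.70 on mock and -4.99, -2.43 and -3.57 on NUDT16 arrays, with no common sign.

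Of the ribosomal protein hosts, RPL13A and RPL4 are described for their different counts of members lower in both pair 1 and pair 3. RPL3 and RPL7A had 1 of 3 each and RPL23A 2 of 3, and over all probes tested the share was 48.3%. In RPL13A, SNORD32A, SNORD33, SNORD34 and SNORD35A ran from 0.01 to 0.56 in pair 1 and from -0.20 to 0.34 in pair 3, with 0 of 4 lower in both, beside 0.05 and 0.03 for the host. In RPL4, SNORD16 and the SNORD18 copies ran from -1.04 to 0.77 and from -0.80 to -0.15, with 3 of 4 lower in both, beside -0.47 and -0.10 for the host.

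**Figure D4:**
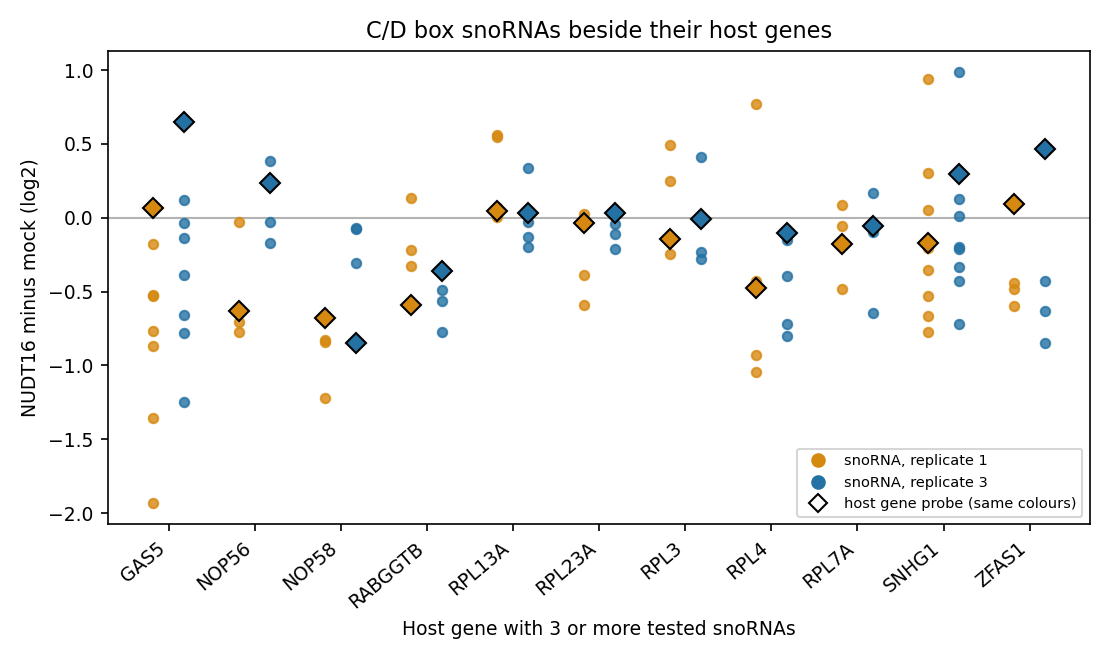
NUDT16 minus mock log2 signal (y axis) of snoRNA probes (dots) and of the host gene's probe (diamonds) in pairs 1 and 3 (colours), for the hosts shown, each with 3 or more tested snoRNAs (x axis). The diamonds of GAS5 and ZFAS1 lie above their snoRNAs in both pairs, and SNHG1 has snoRNAs on both sides of its diamonds.

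The proteins that bind and process C/D box snoRNAs were listed as 25 genes: core proteins, assembly factors, transport factors, and enzymes that free the snoRNA from its intron. Of these 23 were tested, 12 were detected on all 6 arrays and 0 were called in limma without the block (lowest adjusted p 0.999) or with it. Over the 12 detected on all 6 arrays the fitted difference was higher for 4 and lower for 8, with a median of -0.32, against 0.16 over all probes so detected. The other 11 were lower, 11 of 11, but they had passed the filter on the mock arrays only, which favours lower NUDT16 values. FBL, the methyltransferase of the particle, read 4.69, 5.79 and 5.03 on mock and 4.55, 5.74 and 4.85 on NUDT16 arrays, a difference of -0.12 (SE 0.62). NOP56 differed by -0.16 (SE 0.59), NOP58 by -1.03 (SE 0.74) and NHP2L1 by 0.51 (SE 0.61), each with limma adjusted p 0.999 without the block. With the block the SE was 0.30 for FBL, 0.33 for NOP56, 0.33 for NOP58 and 0.31 for NHP2L1. The limma adjusted p was then 0.855, 0.819, 0.467 and 0.501, in that order. NOP58 was lower in all 3 pairs (-0.68, -1.56 and -0.85), and NHP2L1 was higher in all 3 (0.52, 0.74 and 0.26). In replicates 1 and 3 limma called 2 of the 23, against 3.45% of all probes: ZNHIT6, an assembly factor, at -1.05 (adjusted p 0.0239), and PHAX, an export adaptor for capped small RNAs, at -1.003 (adjusted p 0.0328). This pair of genes was chosen after their values were seen.

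Against other small RNAs the fits on replicates 1 and 3 gave 1 called of 101 H/ACA probes (0.99%), which was lower, 0 of 22 small Cajal body RNA probes and 0 of 2 U3 probes. Their median differences there were -0.23, -0.26 and -0.47, against -0.31 over the C/D members and -0.22 over all probes tested. As given above, calls moved with detection on NUDT16 replicate 1, and the classes differed in it. There 51.7% of C/D, 78.4% of H/ACA and 74.1% of small Cajal body RNA probes were well above background. No difference between classes was tested. Over all arrays the H/ACA median was 0.08 and that of the C/D members -0.17. Among probes detected on all 6 arrays the medians were alike, 0.21 for H/ACA probes and 0.21 for C/D members. These were 55 of the 101 tested H/ACA probes and 48 of the 118 tested members.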

How the data were processed

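The deposited scanner files hold spot intensity on a linear scale. Per the file headers, Feature Extraction 10.7.3.1 subtracted background, detrended each array and put surrogates on dim spots, without normalization between arrays, so differences between dim spots are flattened. The submitters' processing notes also name limma. The value table that the authors deposited holds log2 values, its making is not given in the sources used here, and it served as an alternative. The log2 intensity was shifted by each array's 75th percentile over probes well above background on all 6 arrays, outlier spots were left out and spots of a probe averaged. A probe counted as above background where more than 50% of its spots did. The 17765 probes detected on every array of a group entered limma 3.58.1 in R 4.3.3 (lmFit, eBayes, two-sided, Benjamini-Hochberg, 0.05, no block). The number of arrays limits the precision.

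Hosts were genes spanning the snoRNA on the same strand in RefSeq (GRCh38.p14, used for names and neighbourhood only). Of 201 probes 195 matched it by accession. Where no host strand was listed, the orientation of the host's array probes was taken. Of several host probes the brightest stood for the host. The values of 1 host gene are not reported here.

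Named were up to 30 members detected on all arrays (brightest first), the 5 probes with the largest difference in each direction, genes with more than 1 tested probe, and 4 core protein genes. Other names were chosen after their values were seen. Members, lists, tests and the fit on replicates 1 and 3 were chosen with earlier results of these data known.

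Deviations from the group means correlated between same-numbered arrays at 0.84, 0.39 and 0.77 over all tested probes, and at 0.67, 0.64 and 0.91 over members. The numbers therefore pair the arrays, as slide and scan do. On simulated data with 17765 probes for NUDT16 against mock, changes of 1, 2, 4 and 8 on the log2 scale were recovered at 0%, 4%, 58% and 92% without the block and at 0%, 12%, 84% and 94% with it.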

Additional observations from a re-analysis of the deposited data

How the results depend on the processing

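Differences of 1 on the log2 scale were not recoverable in these 6 arrays, and NUDT16 replicate 2 detected few probes, so its values for dim members are bounds. The count of 0 called members held in every setting except the replicate block on replicates 1 and 3, with 12, where 613 probes and 2 particle genes also passed. The replicate block on all pairs changed no call (0 members, 1 probe). With the block and the filter on all 6 arrays together, added after seeing the data, 0 probes passed. The count of 1 probe fell to 0 without scaling, with normexp, with no filter, if detection on all 6 arrays was asked for, and in the authors' table, and leaving out one array gave 0 to 1 (0 without mock replicate 2). In these fits limma found 1, 1, 160, 2, 10 and 1 probes at an unadjusted p under 0.05, in that order. The members' median difference was -1.17 without scaling, 0.39 with normexp, 0.21 with no filter and 0.21 over probes detected on all 6 arrays, with or without the replicate block. Leaving out one array gave -0.57 (without mock replicate 1) to 0.37 (without NUDT16 replicate 1), with -0.55 without NUDT16 replicate 2. Members minus all probes, the median was -0.07 in the reported fit, 0.08 with quantile normalization, -0.21 with array weights, -0.52 with no filter, -0.41 without mock replicate 1, -0.39 without NUDT16 replicate 2 and 0.32 without NUDT16 replicate 1, so no direction against all probes is settled. Genes detected on all 6 arrays numbered 87 with the 95th percentile of negative controls as the limit. The replicate 2 pattern, whose alternatives were added after seeing the data, held for 0 members without scaling. Of 214 values for the 12 named probes, 194 kept their sign and their side of the threshold, 16 reversed and 4 came past the threshold, in replicates 1 and 3. Without scaling SNORD32A was at -0.37, SNORD62A at -0.37, SNORD41 at -0.16, SNORD105B at -0.15, SNORD55 at -0.059 and SNORD8 (A_21_P0000298) at -0.64. In replicates 1 and 3 SNORD32A was at -0.063 and this SNORD8 probe at -0.048. Without NUDT16 replicate 2 SNORD32A, SNORD105B, SNORD55 and this SNORD8 probe were at -0.89, -0.43, -0.34 and -0.93, and without mock replicate 1 the SNORD8 probe was at -0.23. The other SNORD8 probe (A_33_P3843358) was at 0.54 with normexp, 0.17 without mock replicate 3 and 0.66 without NUDT16 replicate 1. Leaving out one array gave at most 1.505 for SNORD32A, 1.96 for SNORD105B, 1.94 for SNORD55 and 1.24 for SNORD8 (A_21_P0000298), and as low as -1.16 for the other SNORD8 probe. In all settings run, SNORD50B, SNORD75, SNORD101, SNORD54 and SNORD44 stayed below 0 but moved: without NUDT16 replicate 1 SNORD75, SNORD101 and SNORD44 were at -0.59, -0.80 and -0.64, without mock replicate 1 the 5 were at -2.96, -2.56, -2.54, -2.15 and -2.12, and with normexp at -1.01, -0.20, -0.27, -0.34 and -0.074. Without NUDT16 replicate 2 SNORD41 was at 0.25 and SNORD62A at 0.27. The causes were not tested.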
